A study of Mus musculus with 12 samples.

Results

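Reactive gliosis is the response of the retina's glia to injury, and it was followed here through 7 genes: Gfap, Vim, Nes, Serpina3n, Cebpd, Fgf2 and S1pr3. They were picked by name, as intermediate filament genes and injury-induced glial genes, with earlier results of these data known. Counts of their calls beside shares of all genes are therefore a description. Each had 1 row among the 24340 rows of the table. In this study 1 eye of each of 6 mice was held at an intraocular pressure (IOP) of 85 to 90 mm Hg for 60 min, while the fellow eye served as its control. RNA of all 12 retinas was sequenced after 3 days, so the 2 retinas of a mouse form a pair. Mice 3, 4 and 6 were sham treated with PBS and gave the groups ctrl and IOP, with 3 retinas each. Mice 1, 2 and 5 received ganciclovir (GCV, 25 mg/kg once a day over the 3 days) and gave the groups ctrl-GCV and IOP-GCV, also with 3 retinas each. Every mouse was 12 to 16 weeks old and carried the p16-3MR transgene, in which regulatory DNA of p16Ink4a drives a reporter with a viral thymidine kinase that makes GCV toxic to the cells expressing it. Since all 12 retinas carry the transgene, an effect of GCV as a drug and an effect of losing p16Ink4a-expressing cells cannot be told apart in these data.

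The glia of the mouse retina are chiefly Müller cells, which span the whole thickness of the tissue, together with astrocytes in the nerve fibre layer. After injury both cell types build up intermediate filaments and secrete acute phase proteins and growth factors, and cytokines that signal through gp130 and STAT3 are known to drive much of this programme. A resting mouse retina makes Gfap mainly in astrocytes, whereas Müller cells begin to make it when the retina is damaged. The libraries looked like retina by their markers: 15 genes of resting Müller cells summed to 1849 to 2784 FPKM and 9 astrocyte genes to 101 to 171 FPKM in each library. FPKM counts fragments per kilobase of transcript, scaled by library size. The unit was inferred from the values, and any comparison of levels between genes rests on that.

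The DNA upstream of the start is shown for Gfap and Serpina3n, a filament gene and a secreted marker that both rose steeply below. It comes from RefSeq promoter sequences (GRCm38.p6), which were found for 6 of the 7 genes, all but Cebpd, and hold 250 bases before a start site. The Gfap stretch lies at chr11:102897201-102897450 on the minus strand and ends at the base before the RefSeq start, inside the span that GENCODE gives the gene because 1 of its noncoding transcripts begins farther upstream. The Serpina3n stretch lies at chr12:104406458-104406645 on the plus strand. It is 188 bases long, since the last 62 of the 250 bases run past the first base that RefSeq gives the gene and were cut. Both are written 5′ to 3′, in lower case throughout because they held no match to the motifs searched.
Gfap: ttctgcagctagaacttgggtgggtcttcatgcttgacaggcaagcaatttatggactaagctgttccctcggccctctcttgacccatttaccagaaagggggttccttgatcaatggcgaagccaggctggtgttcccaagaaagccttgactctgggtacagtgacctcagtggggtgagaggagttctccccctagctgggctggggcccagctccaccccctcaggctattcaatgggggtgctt
Serpina3n: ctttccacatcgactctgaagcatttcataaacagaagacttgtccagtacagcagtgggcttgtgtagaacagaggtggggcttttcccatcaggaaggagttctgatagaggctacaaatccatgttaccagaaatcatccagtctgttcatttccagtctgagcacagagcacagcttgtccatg
The letters searched on both strands were TTCNNNGAA for STAT factors, TGANTCA for AP-1, TTGCNNAA for C/EBP factors and CCAAT for the CCAAT box, and TATAAA for the TATA box on the plus strand of the gene. In none of the 6 full stretches was there a STAT, AP-1 or C/EBP match, which 7.02%, 6.75% and 9.56% of 32851 mouse promoters of that length held. Vim alone had other matches, a CCAAT box from -196 to -192, its reverse complement from -94 to -90 and a TATA box from -32 to -27 relative to the RefSeq start site. Its stretch is not printed because a longer GENCODE transcript counts it as exon. Of all promoters, 33.8% held CCAAT and 7.59% held TATAAA. A match or its absence in this window says nothing about whether a factor binds.

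All 7 genes rose after IOP elevation when the effect was averaged over the mice with and without GCV, though only 5 were still called with the mouse as a block (adjusted p = 0.0505 for Nes and 0.0662 for S1pr3). Serpina3n, Cebpd, Fgf2 and Gfap rose the most (log2 fold changes of 3.37, 3.23, 2.99 and 2.66 on the log2(FPKM + 1) scale), Vim rose by less (1.51), and Nes and S1pr3 rose the least (0.76 and 0.59). The place of Nes depended on the 1 FPKM added. With 0.1 FPKM added instead, Vim rose by 1.52, Nes by 1.34 and S1pr3 by 0.66. The test was limma over the 18509 genes above 0, with Benjamini-Hochberg adjustment and a call at an adjusted p under 0.05. In this average 12.2% of all genes were called, 6.76% as higher. The median log2 fold change was 2.66 over the 7 genes and 0.01 over all genes. Each gene was higher in the IOP-treated retina of most mice: of 42 comparisons between the eyes of a mouse, 41 were in that direction. The 6 genes other than S1pr3 were higher in all 6 mice, as were 10.7% of all genes, and the 6 control and 6 IOP-treated retinas did not overlap for these same genes, as held for 5.47% of all genes. In bulk retina, more cells of a type and more RNA per cell cannot be told apart.

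**Figure D1:**
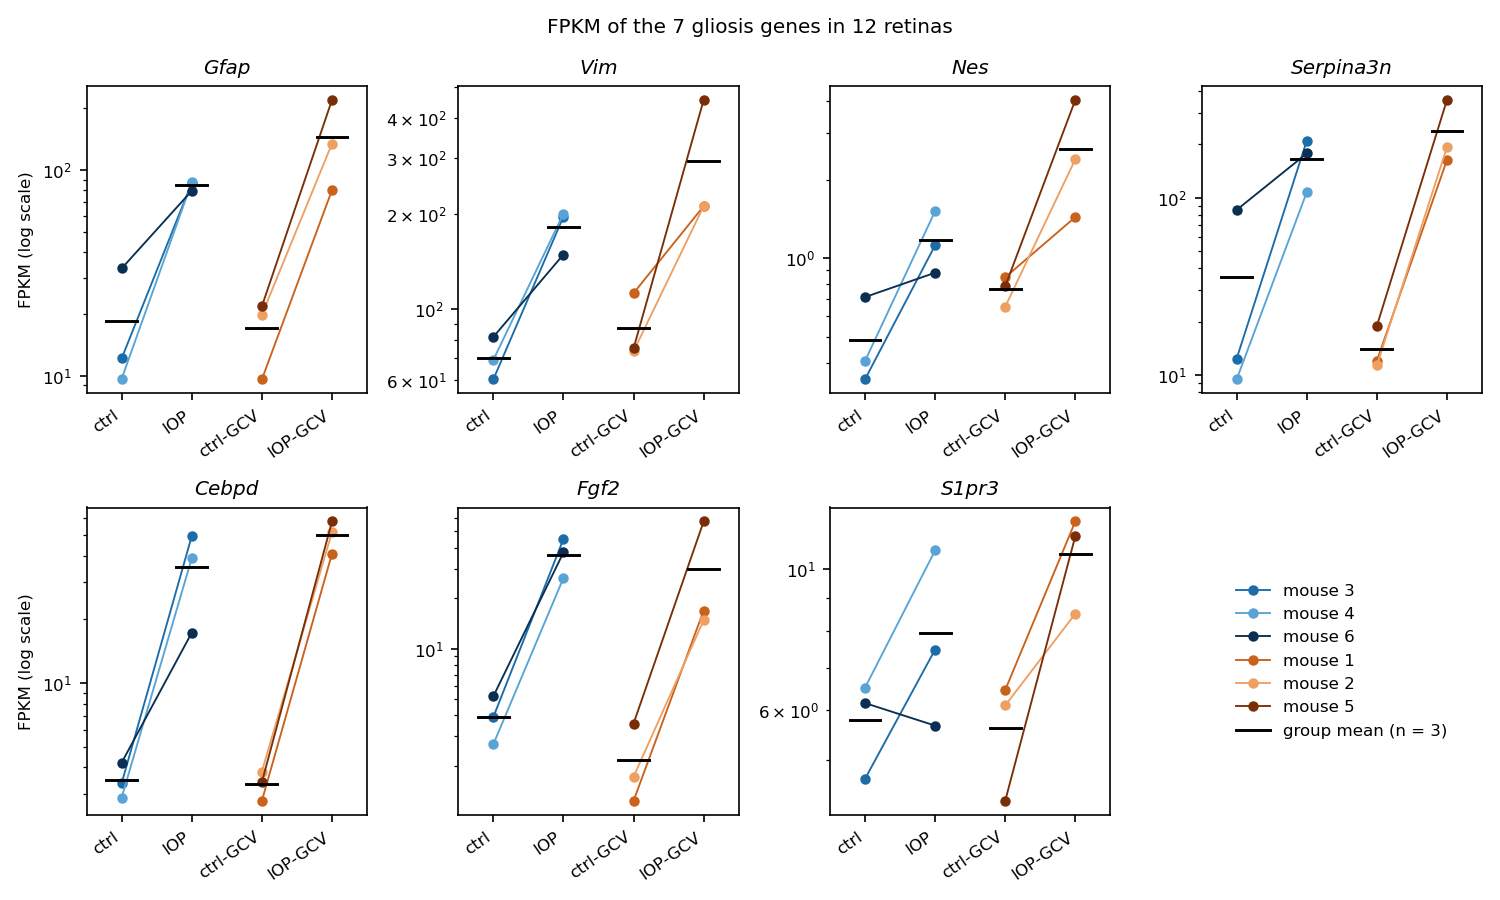
FPKM (log axis, a scale of its own in each panel) of the 7 genes in the 12 retinas by group, with a line joining the 2 retinas of a mouse and a black bar at the group mean (n = 3). The lines climb from control to IOP-treated retina except that of S1pr3 in mouse 6, and the line of mouse 6 is among the flattest in most panels.

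Intermediate filaments were examined first. Gfap encodes glial fibrillary acidic protein, the filament of astrocytes (chr11:102887336-102900912, minus strand, GRCm38). Control retinas of the sham mice 3, 4 and 6 held 12.2, 9.69 and 33.3 FPKM of Gfap, and their IOP-treated retinas held 87.0, 87.5 and 79.5 FPKM. In the GCV mice 1, 2 and 5 the control retinas held 9.62, 19.8 and 21.8 FPKM and the IOP-treated ones 80.1, 134.8 and 219.9 FPKM. The lowest IOP-treated retina thus lay above the highest control, which was that of mouse 6. Gfap was 5.06-fold higher in IOP than in ctrl (log2 fold change 2.34, standard error 0.47, adjusted p = 0.0401) and 7.84-fold higher in IOP-GCV than in ctrl-GCV (2.97, standard error 0.47, adjusted p = 0.0140). With the mouse as a block the first of these was not called (adjusted p = 0.0569). Averaged over both, the rise was 6.30-fold (adjusted p = 0.00135).

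Vim encodes vimentin, the filament that resting Müller cells already contain (chr2:13573927-13582826, plus strand), and it was the most abundant of the 7 genes in each group mean. Its values were 60.1, 69.2 and 81.8 FPKM in ctrl and 195.6, 199.8 and 148.6 FPKM in IOP (mice 3, 4 and 6). They were 112.3, 73.7 and 75.3 FPKM in ctrl-GCV and 211.0, 211.0 and 455.7 FPKM in IOP-GCV (mice 1, 2 and 5). The control retina of mouse 1, highest of the controls, was also the control with the most lens RNA (15 lens genes summed to 7505 FPKM, against 8.52 to 141.6 FPKM in the other 5 controls), and lens cells make vimentin as well. The part of lens tissue in the Vim values was not tested. Vim was 2.55-fold higher in IOP than in ctrl, just short of a call (adjusted p = 0.0524, log2 fold change 1.35, standard error 0.29), and 3.17-fold higher in IOP-GCV than in ctrl-GCV (1.66, standard error 0.29, adjusted p = 0.0198). The latter was not called with the mouse as a block (adjusted p = 0.0924), but the average was (1.51, adjusted p = 0.00222, or 0.0217 with the block).

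Nes encodes nestin, a filament protein of neural progenitors that damaged glia also make (chr3:87971078-87980451, plus strand). It was the least abundant of the 7 in each group, with 0.345, 0.405 and 0.711 FPKM in ctrl and 1.12, 1.51 and 0.881 FPKM in IOP. With GCV the values were 0.846, 0.653 and 0.782 FPKM in control and 1.44, 2.39 and 4.03 FPKM in IOP-treated retinas. Every IOP-treated retina exceeded every control, though mouse 6 and the control of mouse 1 came close to each other (0.881 against 0.846 FPKM). Neither arm alone gave a call (adjusted p = 0.246 without and 0.0668 with GCV), whereas the average did (log2 fold change 0.76, standard error 0.17, adjusted p = 0.0197). That call did not hold with the mouse as a block (adjusted p = 0.0505). At these low levels adding 1 FPKM compresses the change: with 0.1 FPKM added instead, the average was 1.34. The lowest Nes value rested on about 15.9 estimated fragments, so single values of this gene are imprecise.

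Of the summed FPKM of Gfap, Vim and Nes, Gfap made up 7.84% to 28.8% in the 6 controls and 27.4% to 38.7% in the 6 IOP-treated retinas. The Nes share was 0.475% to 0.799% in controls and 0.385% to 0.686% in IOP-treated retinas, and within mice it was lower in the IOP-treated retina of 5 of 6. Measured as the Gfap to Vim ratio, the within-mouse change was 1.22 ± 0.63 on the log2 scale (SD, n = 6) and upward in 6 of 6 mice, from 0.392 in mouse 6 to 2.15 in mouse 1. This ratio was chosen after the values had been seen, so it is given as a description with no test.

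Serpina3n encodes a secreted serine protease inhibitor of the acute phase type and is one of the most used markers of reactive astrocytes (chr12:104406729-104414329, plus strand). In the sham mice 3, 4 and 6 it stood at 12.3, 9.43 and 85.4 FPKM in control and at 209.9, 107.5 and 177.9 FPKM in IOP-treated retinas. In the GCV mice 1, 2 and 5 it stood at 12.0, 11.3 and 18.9 FPKM in control and at 163.4, 192.9 and 356.8 FPKM in IOP-treated retinas. One control stood apart: the fellow eye of mouse 6 had 85.4 FPKM where the other 5 controls had 9.43 to 18.9 FPKM, although it too stayed below every IOP-treated retina. Without GCV Serpina3n was 6.98-fold higher and missed the threshold (adjusted p = 0.0790, log2 fold change 2.80, standard error 0.68). Without that 1 control it was called at 3.76 (adjusted p = 0.00644), beside 0.602% of all genes. Of the 12 fits that left out 1 library, 2 called it. Their log2 fold changes ran from 2.24, without ctrl mouse 4, to 3.76, with adjusted p up to 0.2655. With GCV it was 15.3-fold higher (3.94, standard error 0.68, adjusted p = 0.0177). The average, 10.3-fold, had an adjusted p of 0.00260. Serpina3n has close relatives in a gene cluster on the same chromosome whose reads could be shared with it. The 10 other Serpina3 genes summed to at most 1.80 FPKM in any library and 3 of them were at 0 throughout.

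Cebpd encodes C/EBP delta, a transcription factor of the acute phase response and a known STAT3 target (chr16:15887286-15891031, plus strand). Control retinas were close together at 3.37, 2.88 and 4.21 FPKM without GCV and at 2.78, 3.82 and 3.41 FPKM with it. IOP-treated retinas reached 49.4, 38.9 and 17.3 FPKM in mice 3, 4 and 6 and 40.8, 51.6 and 57.9 FPKM in mice 1, 2 and 5. The gap between the groups was wide, with the lowest IOP-treated retina (mouse 6) still about 4 times the highest control, its own fellow eye. Cebpd was 7.46-fold higher without GCV (log2 fold change 2.90, standard error 0.32, adjusted p = 0.00492) and 11.7-fold higher with GCV (3.55, standard error 0.32, adjusted p = 0.00256). It had the smallest p of the 7 genes in both arms, and both calls held with the mouse as a block (adjusted p = 0.0355 and 0.0258). In the average the rise was 9.35-fold (adjusted p = 0.000131). Spidr, on the opposite strand, overlaps an exon of Cebpd and was higher in IOP-treated retinas as well. Whether the counting used the strand is not given, so reads of both genes cannot be told apart.

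Fgf2 encodes basic fibroblast growth factor, which Müller cells and photoreceptors raise after injury and which is known to protect photoreceptors (chr3:37348346-37410108, plus strand). It measured 3.92, 2.70 and 5.21 FPKM in ctrl and 45.0, 26.4 and 37.4 FPKM in IOP. With GCV it measured 1.24, 1.72 and 3.58 FPKM in control and 16.9, 14.8 and 57.3 FPKM in IOP-treated retinas. The lowest IOP-treated value was well above the highest control, and mouse 6 did not stand apart here. Fgf2 was 7.54-fold higher without GCV (log2 fold change 2.92, standard error 0.47, adjusted p = 0.0177) and 8.37-fold higher with GCV (3.07, standard error 0.47, adjusted p = 0.0124), and the block kept both calls (adjusted p = 0.0283 and 0.0214). One limit concerns the antisense gene Nudt6, whose exons overlap those of Fgf2. Nudt6 moved alike, from 4.55 to 8.74 FPKM over the 6 controls to 17.6 to 47.0 FPKM over the 6 IOP-treated retinas (average log2 fold change 1.999, adjusted p = 0.00135). The kit marked the strand, but whether counting used it is not given in the sources used here, so reads of the 2 genes cannot be told apart.

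S1pr3 encodes a receptor for sphingosine 1-phosphate, a lipid signal, and is among the genes that reactive astrocytes turn on (chr13:51408639-51422797, plus strand). Values in ctrl were 4.67, 6.51 and 6.15 FPKM and in IOP 7.47, 10.7 and 5.67 FPKM. In ctrl-GCV they were 6.45, 6.10 and 4.32 FPKM and in IOP-GCV 11.9, 8.51 and 11.3 FPKM. The sham groups overlapped because the IOP-treated retina of mouse 6 was below its fellow eye, while the GCV groups did not, as held for 14.5% of all genes. Neither arm reached the threshold (adjusted p = 0.389 and 0.112, with log2 fold changes of 0.37 and 0.81 and a standard error of 0.23 for each). The average was called at 0.59 (adjusted p = 0.0433) but not with the mouse as a block (adjusted p = 0.0662). An antisense gene overlaps an exon of S1pr3, with the same limit on its reads. Spidr, the gene that overlaps Cebpd, ranged from 1.89 to 4.30 FPKM in controls and from 5.59 to 9.17 FPKM in IOP-treated retinas.

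Set side by side, the calls numbered 3 of 7 without GCV (Gfap, Cebpd and Fgf2) and 5 of 7 with GCV (those and Vim and Serpina3n), where 1.65% and 1.8% of all genes were called. With the mouse as a block the numbers were 2 of 7, 4 of 7 and, for the average, 5 of 7, against 0.405%, 0.778% and 7.3% of all genes. Which genes were called in a single arm depended on single libraries. Without GCV the number of calls was 1 when ctrl mouse 3, ctrl mouse 4 or IOP mouse 3 was left out (0.125%, 0.163% and 0.663% of all genes called) and 5 when IOP mouse 4 was left out (13.5% of all genes). With GCV it was 2, 1 and 3 when ctrl-GCV mouse 1, mouse 2 or mouse 5 was left out (0.423%, 0.417% and 0.509% of all genes). Cebpd alone was called in both arms whichever of the 12 libraries was left out.

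The question the GCV groups address is whether removing p16Ink4a-expressing cells altered the response of the retina to pressure. No difference in the IOP effect between the arms was called for any of the 7 genes, nor for any gene in the table (0.0% called). The difference, with GCV minus without, was positive for all 7 genes, as for 50.7% of all genes, and ran from 0.15 for Fgf2 to 1.13 for Serpina3n. The 7 signs come from the same libraries. In these, mouse 5 (GCV) had the largest change for 7 genes and mouse 6 (sham) the smallest for 6. Leaving out 1 library gave 0.17 to 1.70 for Serpina3n and 0.12 to 0.996 for Gfap, both lowest without ctrl mouse 6. Library weights turned the difference to -0.028 for Vim and -0.37 for Fgf2. The smallest adjusted p was 0.997. The intervals were wide: the 95% interval was -0.85 to 2.12 for Gfap, -0.34 to 1.65 for Cebpd, -0.998 to 3.26 for Serpina3n and -1.33 to 1.63 for Fgf2. Intervals for Vim (-0.61 to 1.23), Nes (-0.30 to 1.17) and S1pr3 (-0.29 to 1.16) were narrower. For each of the 7 genes the interval therefore included both no difference and a response more than 2-fold larger with GCV. Each interval also included a smaller response with GCV, down to -1.33 for Fgf2 and -0.998 for Serpina3n. Without adjustment, the interaction had p under 0.05 for 358 of 18509 genes and none of the 7.

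Among IOP-treated retinas alone, 6 of the 7 genes had the higher mean with GCV and Fgf2 the lower, and none was called. Nes came closest (log2 difference 0.68, 95% interval 0.17 to 1.20, unadjusted p = 0.0147, adjusted p = 0.819). Vim was at 148.6 to 199.8 FPKM in IOP and 211.0 to 455.7 FPKM in IOP-GCV, and its interval included 0 (-0.05 to 1.25, adjusted p = 0.819). In control retinas GCV gave no call either: the log2 differences ran from -0.67 for Fgf2 to 0.29 for Vim, with adjusted p = 1 for each. Unadjusted, p was under 0.05 for 295 genes and none of the 7 in this last comparison, and for 774 genes, Nes alone of the 7, between IOP-treated retinas.

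**Figure D2:**
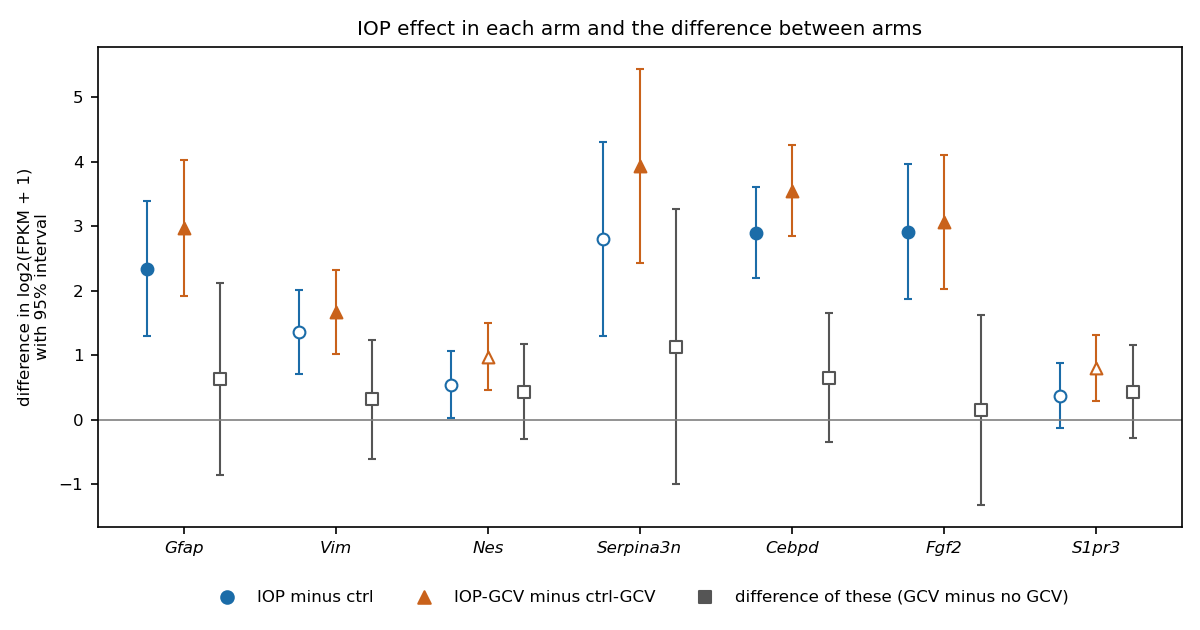
Difference in log2(FPKM + 1) with its 95% interval for IOP minus ctrl (circles), IOP-GCV minus ctrl-GCV (triangles) and the difference between these (squares), with filled symbols for adjusted p under 0.05. The squares are open for all 7 genes and their intervals include 0, at 0.15 to 1.13.

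The spread between mice was orderly. Mouse 5 (GCV) had the largest change between its eyes for all 7 genes, which was so for 17.2% of the 12910 genes averaging 1 FPKM or more. Mouse 6 (sham) had the smallest change for 6 of 7 genes, the exception being Fgf2, whose smallest was in mouse 2. Among the 12910 genes, 29.5% had their smallest change in mouse 6 and 29.6% their largest. The control retina of mouse 6 was the highest of the sham controls for 6 of 7 genes, and its IOP-treated retina the lowest of the sham IOP group for 5 of 7, as held for 35.8% and 36.3% of the 12910 genes. Without both retinas of mouse 6, the number called was 2 of 7 without GCV and 7 of 7 in the average, beside 0.353% and 5.14% of all genes. Without both retinas of mouse 5, it was 2 of 7 with GCV and 6 of 7 in the average, beside 0.365% and 4.23% of all genes.

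**Figure D3:**
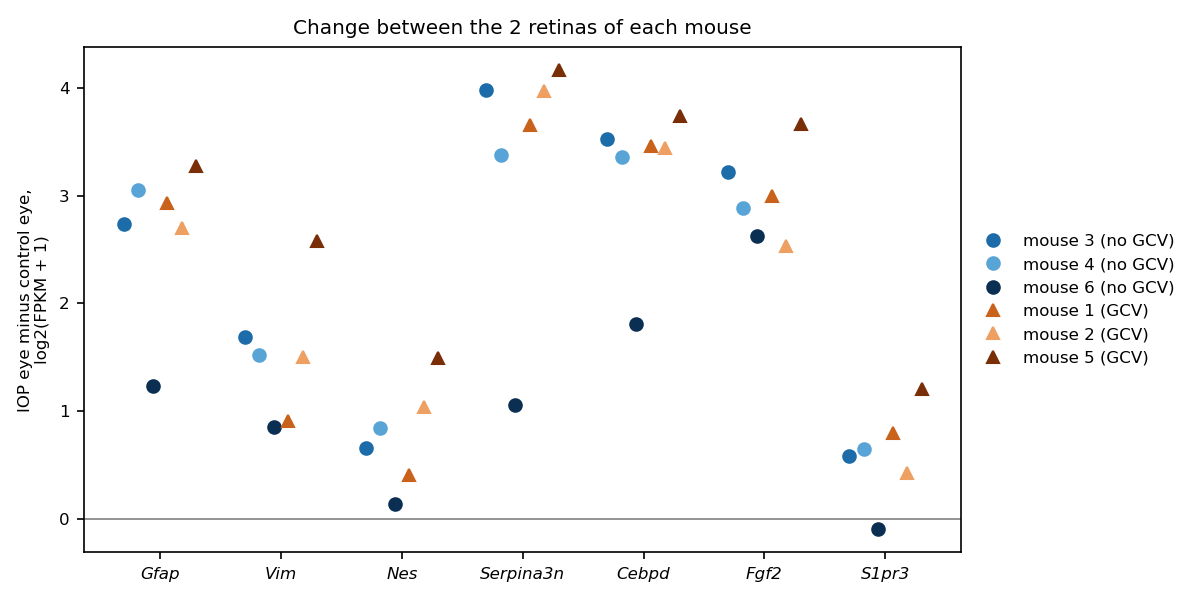
Change in log2(FPKM + 1) from the control to the IOP-treated retina of each mouse, with circles for sham mice and triangles for GCV mice. Mouse 5 tops each gene, up to 4.17 for Serpina3n, and mouse 6 lies far below the others for Gfap, Serpina3n and Cebpd, at 1.23, 1.05 and 1.81.

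Other tissues and cells moved with the same comparison, and their part in the changes of the 7 genes was not tested. The IOP-treated retina of mouse 6 was the shallowest library, at about 3990000 estimated fragments against 6860000 to 9030000 in the others. Markers of microglia and macrophages (13 genes, none at 0) summed to 76.8 to 123 FPKM in ctrl, 349 to 816 in IOP, 89.2 to 102.7 in ctrl-GCV and 302 to 857 in IOP-GCV. Markers of infiltrating leukocytes (12 genes) summed to 9.68 to 50.02, 332 to 758, 12.0 to 37.3 and 181 to 2552 FPKM in the same order. Mouse 6 had the highest microglial sums of both sham groups, 123.2 FPKM in the control and 815.8 FPKM in the IOP-treated retina, though its IOP-treated retina was lowest for 5 of the 7 glial genes. In mouse 5 the IOP-treated retina had the highest leukocyte sum, 2552 FPKM. Macrophages, too, express vimentin. Retinal ganglion cell markers were lower by their median in the average (log2 fold change -1.16): 10 of 12 were called lower beside 5.44% of all genes, but 3 with the mouse as a block, and 1 to 4 when any library except IOP mouse 4 or IOP-GCV mouse 1 was left out. They summed to 1045 to 1308 FPKM in ctrl, 280.3 to 1130 in IOP, 1302 to 2097 in ctrl-GCV and 408 to 863 in IOP-GCV.

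Lens RNA differed between eyes as well: the 15 lens genes summed to 8.52 to 43.9 FPKM in ctrl, 113 to 5556 in IOP, 86.7 to 7505 in ctrl-GCV and 3514 to 7052 in IOP-GCV. In mouse 1, whose 2 retinas held like amounts (7505 FPKM in the control and 7052 FPKM in the IOP-treated retina), Gfap was 8.32-fold, Serpina3n 13.6-fold, Cebpd 14.7-fold and Fgf2 13.6-fold higher in the IOP-treated retina by raw FPKM. Vim, Nes and S1pr3 were 1.88-fold, 1.70-fold and 1.84-fold higher in that mouse, the second smallest change of the 6 mice for Vim and Nes. In mouse 3 lens RNA was 8.52 FPKM in the control and 113 FPKM in the IOP-treated retina, the least of the IOP-treated retinas. There Gfap, Serpina3n, Cebpd and Fgf2 were 7.15-fold, 17.0-fold, 14.7-fold and 11.5-fold higher and Vim, Nes and S1pr3 3.25-fold, 3.25-fold and 1.60-fold higher. That pair differed in other tissue too. Markers of ciliary body, iris and cornea summed to 24.8 and 177.5 FPKM in its control and IOP-treated retina, and pigment epithelium markers to 116.7 and 290.9 FPKM.

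By level, with the unit inferred as said above, the order of the 7 genes changed more than its ends. In group means Vim stayed first and Nes last in each of the 4 groups. Among controls S1pr3 ranked above Cebpd and Fgf2, and after IOP elevation it ranked below both, since every IOP-treated retina had more Fgf2 than S1pr3. Neighbours in this order often could not be separated. In controls Serpina3n exceeded Gfap in 3 of 6 libraries and Cebpd exceeded Fgf2 in 3 of 6, and in IOP-treated retinas Serpina3n exceeded Gfap in 6 of 6 and Cebpd exceeded Fgf2 in 5 of 6.

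Genes with the most similar pattern were sought by the root mean square difference of the 6 within-mouse log2 changes, over the 12910 genes averaging 1 FPKM or more. Likeness here covers the size of the change as well as its order over mice, and says nothing of shared control. Serpina3n and Cebpd were each other's nearest gene (difference 0.463), followed by Timp1 and H2-Eb1 for Serpina3n and by H2-Eb1 and Ifitm3 for Cebpd. Nearest to Gfap were Ifitm3, Ifit1 and Irgm1 (0.398 to 0.476), all of them interferon-inducible genes. Vim was most like Mvp, Cebpb and Gbp7 (0.160 to 0.296), where Mvp encodes the major vault protein. Fgf2 was nearest to Rtp4, Tyrobp and Ms4a7 (0.25 to 0.328), of which Tyrobp and Ms4a7 are made by microglia and macrophages. The changes of Nes, which the added 1 FPKM compresses, lay nearest to those of Sdf2l1, Adamtsl5 and Gltp (0.210 to 0.241), genes of higher level. Tln1 and Plod3 were among the nearest to S1pr3 (0.119 and 0.136).

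Further injury-induced genes of astrocytes and Müller cells were taken from a list of 37. In the average, 19 were called higher and 1 lower, beside 6.76% and 5.44% of all genes, and their median log2 fold change was 0.90. Leaving out 1 library gave 13 to 23 calls, with 13 when ctrl mouse 3, ctrl mouse 4 or ctrl-GCV mouse 5 was left out. Edn2, which encodes endothelin 2, a peptide known to signal from injured photoreceptors to Müller cells, rose from 3.52 ± 0.95 to 54.7 ± 25.3 FPKM without GCV and from 2.06 ± 1.10 to 49.4 ± 13.5 FPKM with it (SD, n = 3; average log2 fold change 3.81, adjusted p = 0.000131). The oncostatin M receptor gene Osmr (1.56, adjusted p = 0.000295) and the complement inhibitor gene Serping1 (2.13, adjusted p = 0.000626) followed. Lcn2, the lipocalin 2 gene and the most abundant of the list, rose by 3.63 (adjusted p = 0.000959), and S100a10, next in abundance, by 1.14 (adjusted p = 0.00302). The gene that fell was Bcan, for the matrix protein brevican (-0.78, adjusted p = 0.0484), and it was not called with the block (adjusted p = 0.0763). In the single arms 9 and 8 of the 37 were called, all higher, beside 1.65% and 1.8% of all genes, and with the mouse as a block 1 and 6, with 15 in the average. Those arm counts rested on single libraries. Without GCV the count was 1 when ctrl mouse 3 or 4 was left out, 4 or 5 when ctrl mouse 6, IOP mouse 3 or ctrl-GCV mouse 5 was, and 14 when IOP mouse 4 was. With GCV it was 3 when ctrl-GCV mouse 1 or 2 was left out and 5 when ctrl-GCV mouse 5 was, with up to 11 in the other fits.

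Of 20 genes of the gp130 to STAT3 pathway, 8 were called higher and 2 lower in the average, beside 6.76% and 5.44% of all genes. The 10 calls fell to 6 without ctrl mouse 3, ctrl mouse 6 or any 1 of the ctrl-GCV mice. Stat3 itself rose from 12.6 to 44.4 FPKM without GCV and from 11.2 to 41.7 FPKM with it in the group means (average log2 fold change 1.77, standard error 0.11, adjusted p = 0.000106). Bcl3, which encodes a partner of NF-kappaB, rose by 4.04 (adjusted p = 0.000332), and Osmr is in this list too. The feedback inhibitor gene Socs3 (2.79) and the ligand gene Cntf (1.395) were also called. The most abundant genes of the list were Jak1, a kinase of the pathway, which fell by 0.24 (adjusted p = 0.0243, but 0.0604 with the block), and Pias3, which was not called (-0.24, adjusted p = 0.243).

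Relatives of the 7 genes were read in the average against 6.76% of all genes called higher and 5.44% called lower. Of 14 other intermediate filament genes none was called higher and 4 were called lower, namely the neuronal filament genes Nefl, Nefm, Nefh and Ina (-1.70, -1.37, -1.12 and -1.61), of which Nefh and Ina held with the block. The 4 calls were 1 or 2 when any library was left out except IOP mouse 4 (5 calls) or IOP-GCV mouse 1 or 2. Nefl was the most abundant of that list and Krt18 the next (0.47, adjusted p = 0.0620). All 6 other C/EBP factors had a higher average, of which Cebpb and Cebpa were called higher (1.498 and 1.59, adjusted p = 0.0125 and 0.0172), while the most abundant, Ddit3 and Cebpz, were not (0.40 and 0.18, adjusted p = 0.0685 and 0.375). Of 22 other FGF ligands, receptors and feedback genes none was called higher and 7 were called lower, with the smallest p for Fgf1, Fgf11 and Fgf13 (-1.67, -1.33 and -0.96) and the largest falls for Fgf1 and Fgf12 (-1.67 and -1.47), and 4 held with the block. Their 7 calls were 1 without ctrl mouse 3, 4 or 6 or ctrl-GCV mouse 2 or 5, 3 without IOP mouse 3 or 6, ctrl-GCV mouse 1 or IOP-GCV mouse 5, and up to 8 otherwise. The 12 other S1P genes gave 1 call each way, a share near that of all genes, neither with the block, and 0 to 2 calls when a library was left out: Sphk2, a kinase that makes sphingosine 1-phosphate (0.43), and Sgpp2, a phosphatase that degrades it (-0.85). The most abundant of them, Sgpp1 and S1pr1, were not called (0.01 and -0.36, adjusted p = 0.967 and 0.112). Among other Serpina3 genes 6 of the 7 above 0 had a higher average and Serpina3i was called (0.20, adjusted p = 0.0443, or 0.0721 with the block) at group means of 0.163 FPKM or less, and Serpina3g, the most abundant, was not (0.37, adjusted p = 0.140).

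Genes of resting glia were also read in the average against 6.76% of all genes called higher and 5.44% called lower. Of 15 genes of resting Müller cells 2 were called higher, the tetraspanin gene Cd9 (0.92) and Dbi (0.68), and 2 lower, Glul and Rlbp1, about 1 gene more each way than those shares would give. The 4 calls became 2 without ctrl mouse 3, ctrl mouse 4 or ctrl-GCV mouse 2 and 8 without IOP mouse 4, when 24.5% of all genes were called. Glul, which encodes glutamine synthetase and was the most abundant, went from 846 to 400.2 FPKM without GCV and from 1057 to 433.8 FPKM with it in the group means (-1.28, adjusted p = 0.0174, or 0.0393 with the block). Clu, the next in abundance, was not called (0.43, adjusted p = 0.0964). Rlbp1, for the retinaldehyde binding protein, was called at -0.65 but not with the block (adjusted p = 0.0547). Of 9 astrocyte genes 1 was called each way, near the shares of all genes: Aldh1l1 was called higher (0.73, adjusted p = 0.00469) and S100b lower (-0.94, adjusted p = 0.0174, or 0.0511 with the block), and the abundant Slc1a2 and Cxcl14 were not called (0.21 and -0.75, adjusted p = 0.190 and 0.0530). With the block 2 of the 9 were called, S100b not among them.

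**Figure D4:**
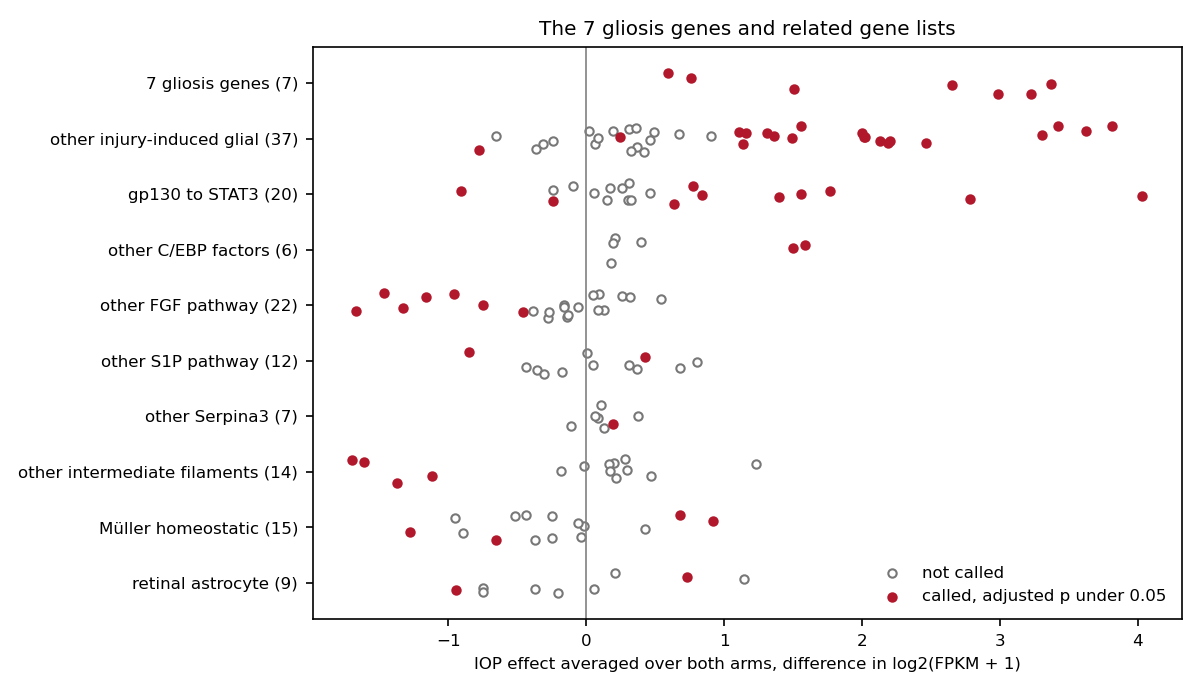
IOP effect averaged over both arms (difference in log2(FPKM + 1)) for each measured gene of the 7 and of the related lists, 1 point a gene, filled where the adjusted p was under 0.05 and with vertical scatter only for legibility. All 7 points of the top row are filled and to the right of 0, at 0.59 to 3.37, whereas the called filament, FGF and S1P genes lie to the left except Sphk2.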

How the data were processed

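Poly(A) RNA of 12 retinas was sequenced as paired reads from stranded libraries. Per the study's methods the authors used HOMER to count fragments over RefSeq exons, and the submitters' processing notes name mm10, TopHat2, Bowtie2, Cufflinks and Cuffdiff, without versions here. The deposited values are FPKM, a unit inferred from the values, and the strand setting of the counting is not given in the sources used here. Depth is not in the table, and 3990000 to 9030000 fragments per library were estimated from small values of 2243 genes having 1 transcript of 1500 bases or more (less 170 bases), a way of estimating picked with the values in view. Of those small values 81.7% to 90.3% fell within 0.15 of a whole number.

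Groups and mouse numbers came from the sample labels. Of 24340 rows, 18509 were above 0 in a library and were tested. The tests were run on log2(FPKM + 1) in R 4.3.3 (limma 3.58.1) with a mean for each of the 4 groups, the variance trend, Benjamini-Hochberg adjustment over all 18509 genes and a threshold of 0.05. A fold change on this scale understates the change of low genes. The study's methods state no test for the RNA-seq comparison. The 2 retinas of a number are the 2 eyes of 1 mouse, so the numbers pair the samples: same-numbered retinas deviated from their group means with correlations of -0.117 to 0.388 over 12910 genes. The fit with the mouse as a block is given beside the counts of calls and named genes it changed most. The p-values of the main fit describe the spread of retinas within groups and leave out the pairing. Those of the block fit describe the spread of the change between eyes over these mice. Members and lists were chosen with earlier results of these data known. Of each list the genes named were the called ones with the 3 smallest p in the averaged effect and the 2 most abundant, and those a small count needed, chosen after their values were seen, such as Bcan, Socs3, Cntf, Cd9, Dbi and Rlbp1. Gene positions are those of GENCODE M21 (GRCm38), the build named mm10 in the notes. Other settings tried were the mouse block, library weights, median-ratio scaling, 0.1 as the pseudocount, a low-value filter (1 FPKM in 3 libraries), only the 2 groups of a comparison, and each library left out. Leaving out both retinas of mouse 5 or of mouse 6 was added after seeing the data. Plots and summaries were made in Python 3.11.15 (matplotlib 3.10.9, numpy 2.4.6, pandas 2.3.3). No column of the table was left unused. One item that the naming rule would have given is not reported here.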

Additional observations from a re-analysis of the deposited data

Results flagged for a closer look

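The change between the eyes of mouse 6 stood apart from those of the other 5 mice for 3 of the 7 genes by Dixon's test at the 95% level for 6 values. The log2(FPKM + 1) change of Gfap in that mouse was 1.23, with a gap to the next mouse of 0.721 of the whole range. For Serpina3n it was 1.05 (0.747 of the range), and for Cebpd it was 1.81 (0.803 of the range). Each gap exceeded the critical share of the range. Chance alone marks about 1 in 20 such groups, and these 3 marks come from the same 2 libraries. Beside them stand the lowest estimated depth, in the IOP-treated retina of mouse 6 (3990000 fragments), and the highest Serpina3n and Gfap values of any control, in its fellow retina (85.4 and 33.3 FPKM). The part of either in the small changes was not tested.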

How the results depend on the processing

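The rise of Gfap, Vim, Serpina3n, Cebpd and Fgf2 in the averaged effect was called under each alternative that gives an average, which fits of only the groups compared do not. Without GCV 3 of the 7 genes were called (1.65% of all genes), and 5 with the filter of 1 FPKM in 3 or more libraries (2.65% of 13411 genes tested), 4 with a pseudocount of 0.1 (Vim gained, adjusted p = 0.0364; 2.51% of all genes) and 2 with library weights (Gfap lost, adjusted p = 0.148; 0.972%). With GCV 5 were called (1.8%), but 7 with library weights (Nes and S1pr3 gained, adjusted p = 0.0426 and 0.0137; 9.3%), 2 with only the groups compared, where 6 libraries set the spread (0.512%), and 2 without both retinas of mouse 5, where 1 pair fewer was left (0.365%). Leaving out each library in turn gave 1 to 5 calls without GCV, 1 to 7 with GCV and 5 to 7 in the average, and 0 to 0 for the interaction and for both GCV comparisons. The 7 calls with GCV came without IOP mouse 4, when 5.67% of all genes were called (24.5% in the average), and the 5 in the average with 4.51% to 4.98% of all genes. With the mouse as replicate block, the pairing of the eyes gave 2 calls without GCV, 4 with GCV, 5 in the average and 0 for the interaction. Besides Gfap, Vim, Nes and S1pr3 as given above, the block changed no call of the 7 genes.

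Signs that turned all belonged to differences that were not called. For the interaction, library weights gave -0.028 for Vim and -0.37 for Fgf2, the fits without both retinas of mouse 5 gave -0.15 for each of them, and leaving out a library gave -0.057 to 0.51 for Vim and -0.45 to 0.50 for Fgf2. For ctrl-GCV against ctrl, leaving out a library gave -0.31 to 0.53 for Gfap, -1.21 to 0.32 for Serpina3n, -0.15 to 0.066 for Cebpd and -0.16 to 0.11 for S1pr3. In that comparison the fit without mouse 5 gave -0.18 for Gfap and 0.11 for S1pr3, and the fit without mouse 6 gave 0.32 for Serpina3n, 0.066 for Cebpd and 0.006 for S1pr3. The cause was not tested. In the average, the 3 fits that ended the call of Nes left out ctrl mouse 3, ctrl mouse 4 or ctrl-GCV mouse 2 (adjusted p = 0.0543, 0.0561 and 0.0542), and S1pr3 was called in 3 of 12 such fits, those without IOP mouse 4, IOP mouse 6 or IOP-GCV mouse 2. Without GCV, Gfap was called in 5 of 12 fits (adjusted p up to 0.169, lost without ctrl mouse 3 or 4, IOP mouse 3 or 6, or any ctrl-GCV mouse) and Fgf2 in 9 of 12 (up to 0.0910, lost without ctrl mouse 3 or 4 or IOP mouse 3). With GCV, Gfap and Fgf2 were called in 10 of 12 (up to 0.0637 and 0.0640, lost without ctrl-GCV mouse 1 or 2), Vim in 10 of 12 (up to 0.101, lost without ctrl-GCV mouse 2 or 5) and Serpina3n in 8 of 12 (up to 0.0892, lost without any ctrl-GCV mouse or IOP-GCV mouse 5). With 3 mice a group and no read counts, changes of low genes such as Nes are the least certain.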
